A study of Homo sapiens with 72 samples.

Results

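Loss of CTU2 and removal of glutamine from the medium were compared gene by gene in A375 cells, an established human melanoma line, to see which transcripts moved in the same direction, which moved in opposite directions and which moved in 1 of the 2 experiments. The 12 libraries used for the comparison, of 72 in the series, were chosen by their labels: the T arm at 0 h of the siCTU2, siGL2, mQ and pQ groups, with 3 replicates each. In siCTU2 cells, a pool of 2 siRNAs against CTU2 had been transfected for 42 h, and siGL2 cells had received an siRNA against firefly luciferase for the same time. Both of these groups were kept with 2 mM glutamine. In mQ cells, glutamine had been left out of the medium for 18 h, and pQ cells had been kept in the same medium with 2 mM glutamine. All cells, controls included, received triptolide (25 µM), which blocks transcription, just before harvest at 0 h, and cytoplasmic RNA was sequenced from its 3′ end (QuantSeq). The 12 libraries of the TCHX arm at 0 h, in which cycloheximide (100 µg/ml), a blocker of translation, was given with triptolide, did not enter the classes and served as a second measurement of the same 2 responses. The experiments differ in duration and in transfection, so a difference between their responses cannot be told apart from these differences. Each experiment has controls of its own, so the 2 responses share no library.

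CTU2 is a subunit of the enzyme that thiolates the wobble uridine of the tRNAs that read AAA, GAA and CAA codons, which encode lysine, glutamate and glutamine. Its sulfur arrives through URM1, and the Elongator complex (ELP genes) prepares the same uridine. Glutamine is a source of nitrogen and carbon for growing cells, and its shortage is known to activate the kinase GCN2. The transcription factor ATF4 then raises genes for amino acid synthesis and import and for tRNA charging.

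The 3 siRNAs matter for what follows and are shown as guide strands, 5′ to 3′, with the seed (bases 2 to 8) in capitals.
siCTU2#1 guide: uUGGUCAUgagcuugauag
siCTU2#2 guide: aAGUCCUUcauguucacgc
siGL2 guide: uCGAAGUAuuccgcguacg
The sense strands of siCTU2#1 and siCTU2#2 match the coding sequence of the CTU2 transcript at bases 843 to 861 and 1428 to 1446 of 1721, and that of siGL2 has no match there. The gene spans 88706483 to 88715396 of chromosome 16 in GRCh38 and is read from the plus strand. Its level was 2.95, 1.01 and 1.32 CPM (counts scaled by the library total) in the siCTU2 libraries and 21.1, 22.0 and 24.2 CPM in the siGL2 libraries, with no overlap. It was 22.0, 24.8 and 18.6 CPM in mQ and 32.2, 29.9 and 26.0 CPM in pQ cells. On the log2 scale its response was -3.71 (SE 0.26, edgeR adjusted p = 3.5e-09) with siCTU2 and -0.37 (SE 0.19, edgeR adjusted p = 0.17) without glutamine, and the difference between them was -3.34 (SE 0.33, edgeR adjusted p = 5e-07).

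The libraries held 8081022 to 12860622 counts and 16112 to 16910 detected genes, and log2 CPM values of libraries of 1 group correlated with r between 0.967 and 0.982. In the T arm, mQ replicate 2 differed most from the other libraries of its group, with a chi-square per degree of freedom of 16.9 and 30.5 against replicates 1 and 3, where all other pairs within groups had 4.57 to 9.31. In the TCHX arm, pQ replicate 3 stood apart with 19940 detected genes against 15938 to 16901 in the others. Results of that arm include it unless the text says without it. Nothing states that replicates came from separate cultures, and the p-values then measure only the spread between these libraries, which may be technical. The melanocyte lineage genes SOX10 and S100B were abundant (means of 258 to 376 and 265 to 339 CPM), while the pigment genes MLANA and TYR were at or near 0 (at most 0.866 and 1.02 CPM). Other pigment genes were detected, DCT with means of 29.2 to 96 CPM and PMEL with means of 3.63 to 5.6 CPM. Of 8 epithelial markers, CDH1, KRT5, KRT1 and GRHL2 had 0 counts in all 12 libraries. The summed level of the 8 was 263 to 311 CPM in siCTU2, 187 to 215 in siGL2, 100 to 135 in mQ and 179 to 234 in pQ libraries, and it was made almost wholly of KRT10. The 5 immune markers summed to at most 1.17 CPM, the 4 fibroblast markers to at most 3.95 CPM and the 3 endothelial markers to at most 2.02 CPM.

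RNA was measured in bulk, so a smaller number of cells of 1 kind and less RNA per cell cannot be told apart. Both responses and their difference were tested for 12950 genes in 1 edgeR fit (adjusted p under 0.05 over all genes tested). The level of 3676 genes (28.4%) changed with siCTU2, 1768 being higher (13.7%) and 1908 lower (14.7%). Without glutamine, 3922 genes changed (30.3%), 1891 being higher (14.6%) and 2031 lower (15.7%). The responses differed for 4149 genes (32%), of which 2064 had the higher value with siCTU2 (15.9%) and 2085 the lower one (16.1%). Genes called in both numbered 1298, which is 35.3% of the siCTU2 calls and 33.1% of the glutamine calls.

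Those 1298 genes were divided almost evenly between same and opposite directions. There were 327 genes higher in both (2.53%), 342 lower in both (2.64%), 309 higher with siCTU2 and lower without glutamine (2.39%) and 320 lower with siCTU2 and higher without glutamine (2.47%). The same direction was thus found for 669 of 1298 genes (51.5%). Without mQ replicate 2, 4406 genes were called for siCTU2 and 3343 for glutamine depletion, and the 4 classes held 347, 374, 364 and 310 genes. Across all 12950 genes, which are not independent replicates, the 2 log2 fold changes had a Pearson r of -0.0014 and a Spearman rho of -0.00093. Changes of at least 2-fold in both experiments were estimated for 41, 27, 21 and 26 genes of the 4 classes. Among the 669 genes that moved the same way, 138 (20.6%) also differed in the size of the change.

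Genes called in 1 comparison were taken as moved by that treatment only where the difference itself passed the test. By this rule, 1493 genes (11.5%) were changed by siCTU2 only, of which 672 were higher and 821 lower, and 1560 genes (12%) were changed by glutamine depletion only, of which 685 were higher and 875 lower. A further 885 and 1064 genes were called in 1 comparison with no called difference, and for them a distinct response was not shown. The difference alone was called for 329 genes, and 6321 were called in none of the 3 tests.

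**Figure D1:**
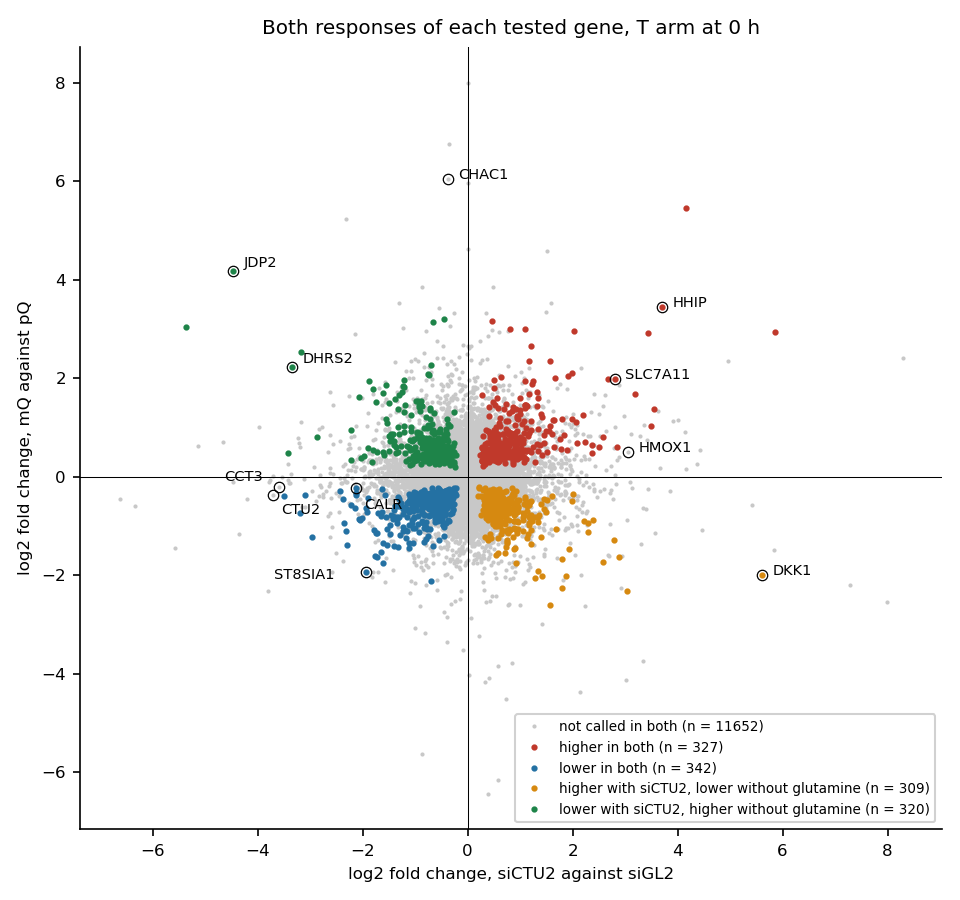
Each point is 1 of 12950 tested genes in the T arm at 0 h, placed by its log2 fold change with siCTU2 (x axis) and without glutamine (y axis). Colours mark the 327, 342, 309 and 320 genes called in both, which fill all 4 quadrants in similar numbers, and circles mark 11 genes named in the text.

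The gene with a high level and a large rise in both experiments was SLC7A11 (chromosome 4, 138164097 to 138242349, minus strand), which encodes the cystine/glutamate exchanger. It had 431, 479 and 432 CPM in siCTU2 and 56.9, 63.0 and 72.8 CPM in siGL2 libraries. Without glutamine it had 442, 390 and 586 CPM, against 99.9, 137 and 135 CPM in pQ libraries. The treated libraries of both experiments lay far above all control libraries. The log2 fold changes were 2.80 (SE 0.15, edgeR adjusted p = 1.1e-10) and 1.99 (SE 0.14, edgeR adjusted p = 1.9e-08), and the response to siCTU2 was the larger by 0.81 (SE 0.20, edgeR adjusted p = 0.0044). The responses were 2.72 and 2.08 in the TCHX arm, and their difference of 0.64 did not pass there (edgeR adjusted p = 0.081). The 3′ UTR of SLC7A11 holds 1 match to the siGL2 seed, and its part in the lower siGL2 level was not tested.

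The other genes named by the rule among those higher in both were expressed at low levels. KLF4, a transcription factor of epithelial differentiation and growth arrest, had 7.38, 8.58 and 7.39 CPM with siCTU2 against 1.16, 2.60 and 2.10 CPM with siGL2. It had 10.8, 8.56 and 16.2 CPM without glutamine against 3.00, 3.32 and 2.27 CPM with it. Its log2 fold changes were thus alike, 1.99 and 2.10 (SE 0.32 and 0.30), with a difference of -0.12 (95% interval in the fit -1.07 to 0.83). HHIP, a secreted inhibitor of Hedgehog ligands, had 5 counts in all siGL2 libraries against 86 in all siCTU2 libraries, a ratio of 13.3 (95% exact Poisson interval 5.47 to 41.9, counting error only). FBLIM1, a filamin-binding protein, and SLITRK6, a neuronal transmembrane protein, had log2 fold changes of 2.02 and 3.19 with siCTU2 and of 2.95 and 1.68 without glutamine. The glutamine responses of HHIP and FBLIM1 in the TCHX arm were 0.27 and 1.11, or 3.27 and 1.60 without pQ replicate 3. The transcript LOC107986127 had 1.91 and 2.04. The TCHX glutamine response of SLITRK6 was -0.72, or 0.88 without that replicate, and passed the test in neither fit.

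Genes lower in both were led by ST8SIA1 (chromosome 12, 22063773 to 22437041, minus strand), the synthase of the ganglioside GD3, which is abundant in melanoma. Its levels were 4.74, 3.32 and 5.75 CPM with siCTU2 and 19.2, 17.3 and 16.8 CPM with siGL2. They were 2.48, 4.00 and 3.04 CPM without glutamine and 13.3, 12.9 and 12.2 CPM with it. All treated libraries were below all control libraries, and both log2 fold changes were -1.94 (SE 0.22 and 0.23). In the TCHX arm its siCTU2 response was -2.01 and its glutamine response -0.60, or -0.91 without pQ replicate 3, the latter below the threshold of the test (edgeR adjusted p = 0.32 and 0.052). MREG, which takes part in melanosome transport, fell by 1.64 and 1.53 on the log2 scale, and TNFAIP3, a brake on NF-κB signalling, by 1.33 and 1.43. KBTBD8, a substrate adaptor of a ubiquitin ligase, fell by 2.30 and 1.39, LXN, a carboxypeptidase inhibitor, by 1.54 and 1.38, and NPPC, which encodes C-type natriuretic peptide, by 1.61 and 1.34. The glutamine responses of MREG (-0.53), LXN (-0.72) and NPPC (0.20) did not pass in the TCHX arm. Without pQ replicate 3 they were -0.89, -1.04 and -0.31, and that of NPPC again did not pass.

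MITF, the master regulator of the melanocyte lineage, was the 1 gene of 9 tested lineage genes lower in both, and was chosen here after its values were seen. Its mean level was 124 CPM with siCTU2 against 346 CPM with siGL2 and 154 CPM without glutamine against 357 CPM with it (n = 3 each). The log2 fold changes were -1.47 (SE 0.14, edgeR adjusted p = 2e-07) and -1.16 (edgeR adjusted p = 9.2e-06), and the TCHX arm gave -1.43 and -0.84. The other lineage genes did not follow: SOX9 fell with siCTU2 only (-0.40, against 0.02), AXL and NGFR, which mark less differentiated melanoma cells, were higher with siCTU2 (0.95 and 1.14) with no called difference from the glutamine response, and S100B was lower without glutamine (-0.26). The median responses of the list were -0.01 and 0.02.

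Among the genes that met the naming rule for opposite responses, DKK1 and JDP2 had the largest differences. DKK1 (chromosome 10, 52314281 to 52318042, plus strand), a secreted WNT antagonist, had 62.5, 78.5 and 49.1 CPM with siCTU2 and 1.27, 1.58 and 0.988 CPM with siGL2. It had 1.49, 0.856 and 1.69 CPM without glutamine and 5.15, 7.91 and 3.49 CPM with it. The groups did not overlap in either experiment, and the log2 fold changes of 5.61 and -1.99 differed by 7.59 (SE 0.46, edgeR adjusted p = 1.2e-09). The TCHX arm gave 5.17 and -2.08. Other genes higher with siCTU2 and lower without glutamine were TMEM171 (2.57 and -1.73), a membrane protein, COL14A1 (2.88 and -1.63), a collagen of the fibril surface, AKR1C3 (1.81 and -2.25), a steroid and prostaglandin reductase, DLX5 (1.88 and -2.02), a homeobox factor, and the transcript LOC105376369 (3.04 and -2.31). For DKK1 and these genes the difference of responses had the same sign in the TCHX arm, from 3.06 to 7.25, and passed there. Single responses did not all pass in that arm: the glutamine response of TMEM171 was -0.57 (edgeR adjusted p = 0.47), both responses of DLX5 missed the threshold (edgeR adjusted p = 0.059 and 0.26), and so did the siCTU2 response of AKR1C3 (edgeR adjusted p = 0.063). Without pQ replicate 3 the siCTU2 responses of DLX5 and AKR1C3 passed (edgeR adjusted p = 0.025 and 0.0078). The glutamine responses of TMEM171 (-1.02), DLX5 (-1.70) and AKR1C3 (-1.03) did not pass in that fit.

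JDP2 (chromosome 14, 75427716 to 75474111, plus strand), a partner of JUN and ATF factors, went the other way. It had 15.3, 23.0 and 18.3 CPM without glutamine and 1.07, 1.47 and 0.730 CPM with it, a log2 fold change of 4.18 (SE 0.32). With siCTU2 it had 2 counts in all 3 libraries against 41 with siGL2, a ratio of 26.6 (95% exact Poisson interval 6.9 to 227). In the TCHX arm it had 6, 5 and 9 counts with siCTU2 against 10, 12 and 24 with siGL2, and its log2 fold change of -1.05 did not pass (edgeR adjusted p = 0.31). In the fit without pQ replicate 3 this value was -1.06 (edgeR adjusted p = 0.055). DHRS2, a dehydrogenase/reductase, had 2.32, 1.57 and 2.80 CPM with siCTU2 against 16.2, 22.4 and 30 CPM with siGL2. It had 33.7, 19.9 and 37.3 CPM without glutamine against 6.66, 5.57 and 7.79 CPM with it, so that the groups were again apart in opposite orders. Its log2 fold changes were -3.34 and 2.23, and -3 and 1.91 in the TCHX arm, all past the threshold. PAPSS2, which makes the sulfate donor PAPS, had -1.81 and 1.78, and -1.25 and 1.46 in the TCHX arm. RTN4R, the Nogo receptor, had -2.08 and 1.62, and neither value passed in the TCHX arm (-0.43 and 0.20), nor without pQ replicate 3 (-0.43 and 1.20). The small noncoding RNAs SNAR-E and SNAR-C3 were also in this class (-1.56 and 1.87, and -1.74 and 1.51), but they belong to a family of near-identical copies, which leaves the gene of origin uncertain.

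**Figure D2:**
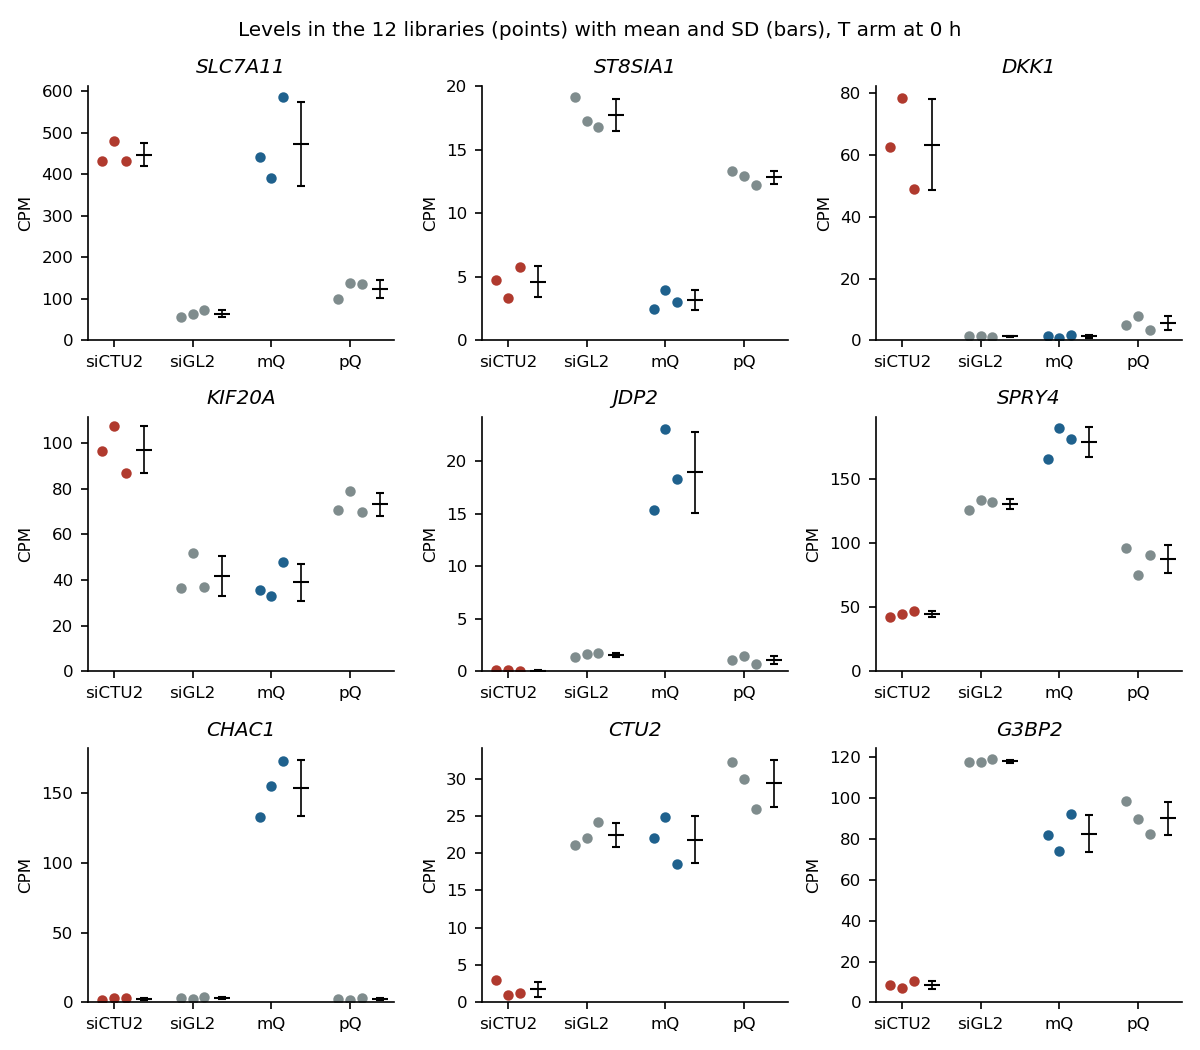
Levels in CPM (y axis, from 0) of 9 genes in the 12 T arm libraries at 0 h. Points are libraries, with mean and SD (n = 3) beside them. SLC7A11 is high and ST8SIA1 low in both treatments, DKK1, KIF20A, JDP2 and SPRY4 move in opposite directions, and CHAC1, CTU2 and G3BP2 move in 1 experiment.

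The genes of the amino acid response separated the treatments. All 16 tested stress response genes were higher without glutamine, while 4 were higher and 3 lower with siCTU2, and the response was lower with siCTU2 than without glutamine for 14 of 16. The median log2 fold changes were 2.93 and 0.05, against 0.01 and 0.00 over all genes tested. Over all genes tested, 14.6% were higher and 15.7% lower without glutamine, and 13.7% higher and 14.7% lower with siCTU2. The difference was called lower for 16.1% of all genes. These shares are the background for the list counts below. ATF4 itself had 253, 228 and 242 CPM with siCTU2 and 246, 228 and 235 CPM with siGL2, groups that overlapped. It had 1213, 1551 and 1270 CPM without glutamine and 215, 223 and 246 CPM with it. Its log2 fold changes were 0.03 (SE 0.10, edgeR adjusted p = 0.87) and 2.62 (SE 0.10, edgeR adjusted p = 3.6e-12), and the 95% interval of the siCTU2 value ran from -0.17 to 0.23. CHAC1, a glutathione-degrading enzyme and target of ATF4, had 1.69, 2.86 and 2.88 CPM with siCTU2 and 3.46, 2.60 and 3.83 CPM with siGL2, against 133, 155 and 173 CPM without glutamine and 2.25, 1.86 and 3.00 CPM with it. The stress cofactor NUPR1 behaved likewise in these libraries (0.01 and 5.96). ALDH1L2, of mitochondrial folate metabolism, had 223 counts without glutamine against 7 with it, a ratio of 36.9 (95% exact Poisson interval 17.6 to 93). Its siCTU2 response of -2.31 (SE 0.85) just missed the threshold (edgeR adjusted p = 0.0502), at 0.23 against 1.23 CPM. In the TCHX arm its glutamine response was 2.71 (edgeR adjusted p = 0.059), or 5.49 without pQ replicate 3 (edgeR adjusted p = 0.00073).

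The members of this list that moved with siCTU2 did so in both directions. ATF3 (1.09 and 3.00), DDIT3 (0.46 and 3.16), STC2 (1.25 and 1.94) and ATF5 (0.45 and 0.47) were higher in both. TRIB3 (-0.46 and 3.20), CTH (-0.66 and 3.15) and JDP2 were opposite. TRIB3 is a pseudokinase that feeds back on ATF4, and CTH makes cysteine from cystathionine. The fall of TRIB3 with siCTU2 did not pass in the TCHX arm (-0.57, edgeR adjusted p = 0.065), but did without pQ replicate 3 (-0.57, edgeR adjusted p = 0.000275). In the pQ library 3 of the TCHX arm CHAC1 had 19.3 CPM, against 3.01 and 2.91 CPM in the other pQ libraries of that arm, and the list's median glutamine response was 2.74 there, or 3.06 without that library.

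Enzymes of serine and one-carbon synthesis gave the same split. Of 7 tested, 6 were higher and 1 lower without glutamine, and 1 was higher and 2 lower with siCTU2. PHGDH, the first enzyme of serine synthesis, had 40.2, 39.8 and 40.9 CPM with siCTU2, 37.3, 38.9 and 40.2 CPM with siGL2, 189, 183 and 222 CPM without glutamine and 39.0, 37.2 and 43.1 CPM with it. Its response without glutamine was 2.37 and with siCTU2 0.06 (SE 0.11, edgeR adjusted p = 0.74). The mitochondrial folate enzymes MTHFD2 and SHMT2 were opposite, with -0.72 and 1.36 and with -0.40 and 1.17. MTHFD1L was higher in both (0.30 and 0.55). Of 18 tested cytoplasmic aminoacyl-tRNA synthetases, which load amino acids onto tRNAs, 11 were higher and 0 lower without glutamine, and 1 was higher and 2 lower with siCTU2. Those siCTU2 counts are below the shares of 13.7% and 14.7% over all genes. GARS1, SARS1 and WARS1 rose by 1.88, 1.62 and 1.84 without glutamine and had -0.17, 0.06 and -0.05 with siCTU2. AARS1 rose in both (0.52 and 1.45), and CARS1 (-0.69 and 2.28) and TARS1 (-0.30 and 0.54) were opposite.

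Amino acid transporters were the list with the most genes higher in both relative to its size. Of 12 tested, 9 rose without glutamine, 5 rose with siCTU2 and none fell in either, and the 5 that rose with siCTU2 were all among the 9. Beside SLC7A11 they were SLC3A2 (1.09 and 1.45), the heavy chain that SLC7A11 and SLC7A5 share, SLC7A5 (0.64 and 2.03), the large neutral amino acid exchanger, SLC1A4 (0.41 and 1.23) and SLC43A1 (0.39 and 0.94). SLC7A5 had 334, 393 and 330 CPM with siCTU2 against 228, 219 and 229 CPM with siGL2, and 852, 922 and 823 CPM without glutamine against 210, 210 and 240 CPM with it. The glutamine transporters SLC1A5 and SLC38A2 and the cationic amino acid transporter SLC7A1 rose without glutamine (1.21, 1.15 and 1.15) and had 0.01, 0.09 and -0.17 with siCTU2, with a called difference for each. The glutamine and glutamate enzymes did not move as a group: of 18 tested, 4 were higher and 4 lower without glutamine, and 1 higher and 5 lower with siCTU2. The shares over all genes were 14.6% and 15.7% without glutamine, and 13.7% and 14.7% with siCTU2. GPT2 and PYCR1, which use glutamate for alanine and proline synthesis, rose without glutamine (2.07 and 1.79) and had -0.30 and 0.09 with siCTU2.

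ATF4 binds the C/EBP-ATF response element, and its core TGATGNAA was searched on both strands of RefSeq promoters (GRCh38.p14, 250 bases before to 50 after the start). Promoters were found for 15 of 18 synthetases, 11 of 12 transporters and 14 of 16 stress response genes. The core was in 5 synthetase promoters (33.3%), 4 transporter promoters (36.4%) and 2 stress response promoters (14.3%), against 3.67% of 27305 promoters, and in 0 of 20 promoters found for the mitotic genes. The synthetase sequences and that of CHAC1 are given 5′ to 3′ in the direction of the gene, with the match in capitals, because these genes rose together without glutamine.
CHAC1, chr15:40953251-40953280, plus strand: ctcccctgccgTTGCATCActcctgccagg
AARS1, chr16:70289675-70289704, minus strand: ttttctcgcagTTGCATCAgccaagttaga
CARS1, chr11:3057407-3057436, minus strand: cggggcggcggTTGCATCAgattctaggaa
MARS1, chr12:57488053-57488082, plus strand: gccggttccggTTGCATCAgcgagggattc
NARS1, chr18:57621804-57621833, minus strand: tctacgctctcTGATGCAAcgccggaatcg
TARS1, chr5:33440956-33440985, plus strand: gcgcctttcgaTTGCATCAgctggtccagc
All 5 synthetases with the core rose without glutamine, by 0.54 to 2.28, and so did 4 of the 10 whose promoter was found without it. Among stress response genes 2 of 2 with the core rose and 12 of 12 without it, and among transporters 3 of 4 and 5 of 7. With siCTU2 AARS1 rose, CARS1 and TARS1 fell, and MARS1 and NARS1 had 0.19 and -0.04 with no call. A match is a description of letters and does not show binding.

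**Figure D3:**
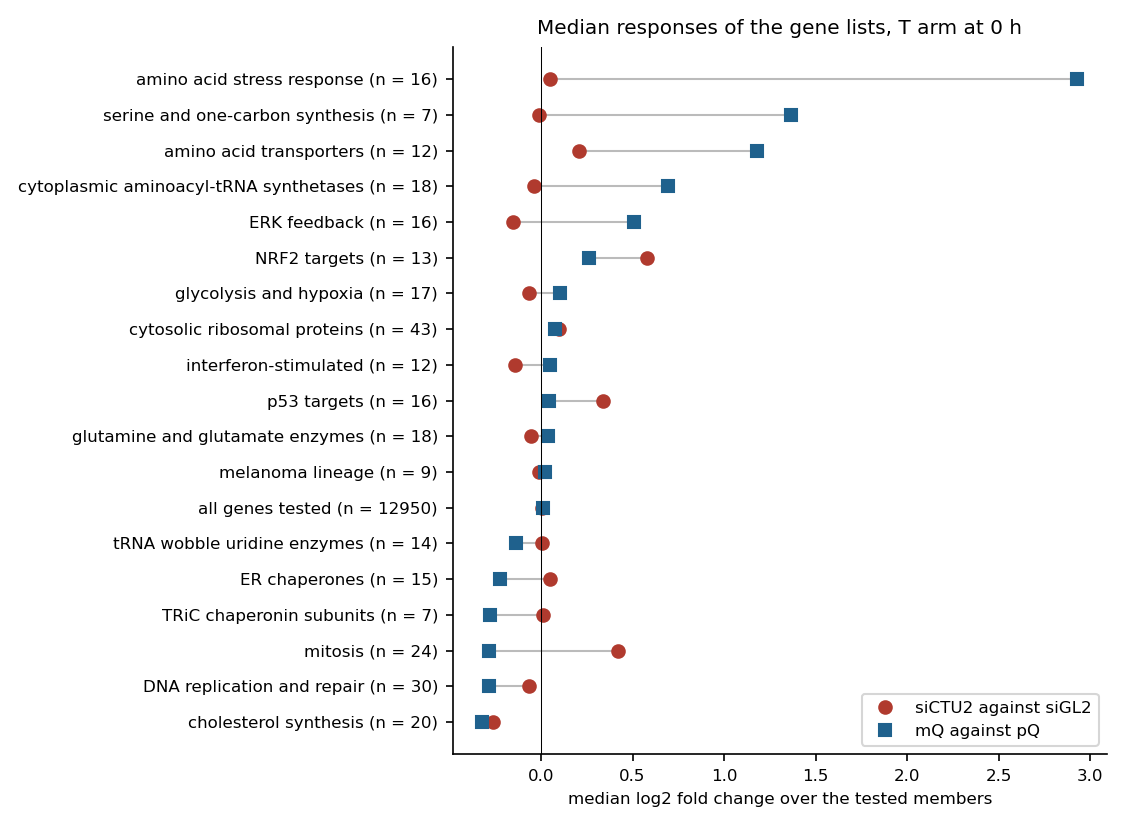
Median log2 fold change over the tested members of 18 gene lists and over all genes tested, with siCTU2 (circles) and without glutamine (squares), T arm at 0 h, and the number tested in brackets. The amino acid stress, serine, transporter and synthetase lists have medians of 0.69 to 2.93 without glutamine and of -0.04 to 0.21 with siCTU2, and mitosis has 0.42 with siCTU2 and -0.28 without glutamine.

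Among mitotic genes, calls with siCTU2 were rises and calls without glutamine were falls. Of 24 tested, 14 were higher and 0 lower with siCTU2, where 13.7% of all genes tested were higher. Without glutamine 9 were lower and 0 higher, where 15.7% of all genes were lower. The response was higher with siCTU2 for 17, and 5 were called in both experiments. KIF20A, a kinesin of cytokinesis (chromosome 5, 138178719 to 138187723, plus strand), had 96.7, 108 and 87.0 CPM with siCTU2 and 36.5, 51.9 and 37.0 CPM with siGL2. It had 35.8, 33.2 and 48.1 CPM without glutamine and 70.7, 79.0 and 69.8 CPM with it, and the groups did not overlap. Its log2 fold changes were 1.21 and -0.85, with a difference of 2.06 (SE 0.21, edgeR adjusted p = 9.4e-07), and 1.00 and -0.24 in the TCHX arm, or -0.48 without pQ replicate 3. CDK1 (0.55 and -0.83), KIF23 (0.51 and -0.95), BUB1B (0.46 and -0.63) and CDCA8 (0.34 and -0.54) were the others called in both, all in opposite directions. The medians of the list were 0.48 and -0.31 in the TCHX arm. These rises are against siGL2, and the 2 controls were not alike. Mean levels of CDK1 were 132, 90.1 and 165 CPM in siCTU2, siGL2 and pQ cells. Those of KIF20A were 97.1, 41.8 and 73.2 CPM, and those of KIF23 94.2, 66.0 and 69.2 CPM. The siCTU2 mean was thus below that of pQ for CDK1 and above it for KIF20A and KIF23. Why the controls differed was not tested.

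Replication and repair genes followed this pattern as a list only in the falls without glutamine. Without glutamine 16 of 30 fell and 2 rose (15.7% and 14.6% of all genes). With siCTU2 5 rose and 5 fell, near the 13.7% and 14.7% of all genes. PCNA (0.45 and -1.25), TYMS (0.53 and -0.99) and RRM2 (0.50 and -0.40), which serve DNA synthesis and nucleotide supply, were opposite in the direction of the mitotic genes. In the TCHX arm the rises of PCNA and TYMS did not pass (0.22 and 0.27, edgeR adjusted p = 0.33 and 0.19). Without pQ replicate 3 that of TYMS passed (0.27, edgeR adjusted p = 0.018) and that of PCNA did not (0.22, edgeR adjusted p = 0.11). BRCA1 was opposite in the other direction (-1.01 and 0.45), and GINS1 and CDC6 were lower in both. Mean levels of PCNA were 251, 184 and 281 CPM in siCTU2, siGL2 and pQ cells, and those of TYMS 480, 333 and 495 CPM. Their rises are thus from a siGL2 level below that of pQ, and the siCTU2 means did not exceed those of pQ. The cell cycle inhibitor CDKN1A, a p53 target, was higher in both: it had 256, 273 and 274 CPM with siCTU2, 47.7, 40.8 and 54.0 CPM with siGL2, 62.4, 61.5 and 88.3 CPM without glutamine and 43.3, 41.6 and 60.0 CPM with it. The mQ and pQ ranges were separated by little, and the responses of 2.50 and 0.60 differed by 1.89 (SE 0.22, edgeR adjusted p = 2.9e-06). In the TCHX arm the glutamine response of CDKN1A was 0.31 (edgeR adjusted p = 0.52), or 0.84 without pQ replicate 3 (edgeR adjusted p = 0.004). Of 16 tested p53 targets, 7 were higher and 1 lower with siCTU2 (13.7% and 14.7% of all genes). Without glutamine 5 of them were higher and 2 lower (14.6% and 15.7% of all genes). GDF15, a stress cytokine, was higher without glutamine only (2.12 against -0.10), PHLDA3 (0.30 and 0.51) joined CDKN1A among those higher in both, and AEN was opposite (0.67 and -0.45).

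The feedback genes of the ERK pathway, which is driven by mutant BRAF in A375 cells, held both opposite and shared responses. Of 16 tested, 10 were higher and 2 lower without glutamine, 3 were higher and 7 lower with siCTU2, 5 were lower with siCTU2 and higher without glutamine, and 4 were called in the same direction in both. Over all genes, 14.6% were higher and 15.7% lower without glutamine, and 13.7% higher and 14.7% lower with siCTU2. The share lower with siCTU2 and higher without glutamine was 2.47%. SPRY4 (chromosome 5, 142310427 to 142326455, minus strand), an inhibitor of receptor tyrosine kinase signalling, had 42.8, 45.0 and 47.2 CPM with siCTU2 and 126, 134 and 132 CPM with siGL2. It had 166, 190 and 182 CPM without glutamine and 96.6, 75.2 and 90.8 CPM with it. The log2 fold changes were -1.54 and 1.09, with a difference of -2.63 (SE 0.15, edgeR adjusted p = 4.2e-10), and -1.38 and 0.91 in the TCHX arm. ETV5 (-1.61 and 0.51), SPRY2 (-0.69 and 0.75), DUSP4 (-0.75 and 0.54) and SPRED1 (-0.48 and 0.54) completed the 5. MYC was lower in both (-1.12 and -1.45), and EGR1 (1.32 and 1.44), FOSL1 (0.51 and 0.50) and CCND1 (0.94 and 0.49) were higher in both. Of these 16 genes, 9 have a 3′ UTR match to a siCTU2 seed, among them 6 of the 7 that fell with siCTU2. SPRY2 is the one without a match. In the other lists with at least 5 genes lower with siCTU2, a site was present in 0 of 6 such wobble uridine enzymes, 1 of 6 glycolysis genes, 1 of 5 cholesterol genes, 1 of 5 glutamine and glutamate enzymes and 2 of 5 replication genes.

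The matches of the siRNA seeds to 3′ UTRs were therefore counted in every class, after the classes had been seen. A site was a perfect 7-base match to the reverse complement of guide bases 2 to 8, ATGACCA for siCTU2#1, AAGGACT for siCTU2#2 and TACTTCG for siGL2, on the sense strand of the canonical transcript (GENCODE 44), which was found for 11078 of 12950 genes. A site for either siCTU2 guide was present in 21.6% of all genes tested. The share was 36.5% for genes lower in both, 32.1% for those lower with siCTU2 and higher without glutamine, and 36.9% for those lower with siCTU2 only. Of the latter, 335 genes were at least 2-fold lower, 302 of them had a 3′ UTR, and the share among these was 47.4%. It was 19.7%, 18.1% and 19% in the 3 matching classes of genes higher with siCTU2. Genes changed by glutamine depletion only, whose comparison holds no siRNA, had 19.1% when higher and 16% when lower. Sites of the siGL2 guide were rare, in 1.49% of all genes tested, and their shares were 3.17%, 4.01% and 2.87% in the classes higher with siCTU2 and 0.90%, 1.71% and 0.91% in those lower with it. Per kilobase of 3′ UTR, genes lower in both had 0.0868 and 0.123 sites of the 2 siCTU2 guides, against 0.0575 and 0.0768 over all genes tested. The median length of the 3′ UTRs was 1780 bases in that class and 1420 bases over all genes tested.

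**Figure D4:**
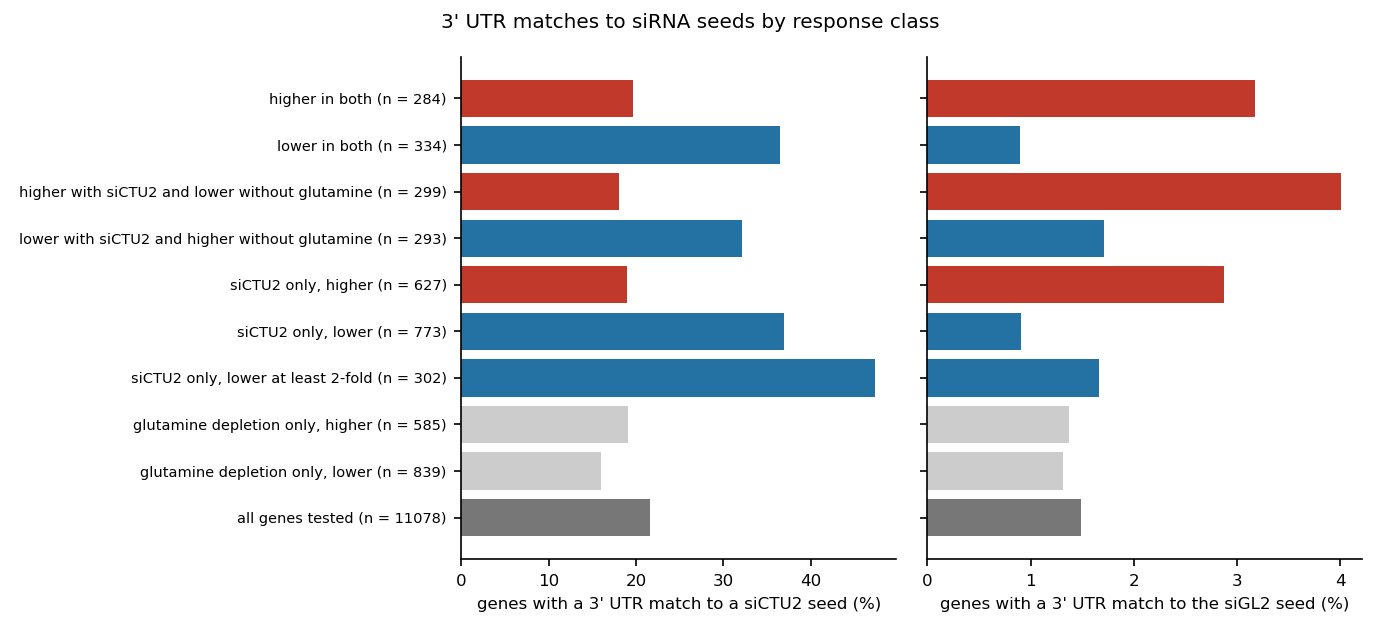
Share of genes (x axis, %) in each response class whose 3′ UTR holds a match to either siCTU2 seed (left) or to the siGL2 seed (right), with the number of genes with a 3′ UTR in brackets. Classes lower with siCTU2 (blue) have 32.1% to 47.4% on the left, against 18.1% to 19.7% in classes higher with it (red), and the order is the reverse on the right.

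Among 2334 genes with a siCTU2 site and no siGL2 site, 12.2% were higher and 26.2% lower with siCTU2, with a median log2 fold change of -0.11. Among 8579 genes with no site of any of the 3 siRNAs, 14.8% were higher and 13.5% lower. In the latter set the 4 classes called in both held 221, 211, 236 and 198 genes, and 49.9% of them moved the same way, so the division between same and opposite directions was much the same without the genes that hold a site. Whether seed pairing lowered any gene here was not tested.

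Windows around sites of genes that fell with siCTU2 are given on the transcript strand, 5′ to 3′ (GRCh38), with the match in capitals, to show the sequences concerned.
G3BP2, siCTU2#1, chr4:75645181-75645209, minus strand: aggactgagaaATGACCAtatcttaaact
G3BP2, siCTU2#2, chr4:75645193-75645221, minus strand: cttggagaattAAGGACTgagaaatgacc
IDH1, siCTU2#1, chr2:208236764-208236792, minus strand: tctaattataaATGACCAaaatcaagatt
SPRY4, siCTU2#2, chr5:142312767-142312795, minus strand: tcaaggtgctaAAGGACTcagaaggtgca
ETV5, siCTU2#1, chr3:186046974-186047002, minus strand: ctgtcccccttATGACCAacagcacattt
ETV5, siCTU2#2, chr3:186046821-186046849, minus strand: tactctaatcaAAGGACTctttctaaacc
ST8SIA1, siCTU2#2, chr12:22201518-22201546, minus strand: atggaagaagaAAGGACTgaaccagggta
G3BP2, a stress granule protein, and IDH1, the cytosolic isocitrate dehydrogenase, were among the largest falls with siCTU2 only. G3BP2 had 8.32, 6.82 and 10.6 CPM with siCTU2 against 118, 118 and 119 CPM with siGL2, and 81.9, 74.1 and 92.1 CPM without glutamine against 98.5, 90.0 and 82.4 CPM with it. Its responses were -3.77 and -0.07, and those of IDH1 -3.79 and -0.11, with differences of -3.70 and -3.68 that were -3.54 and -4.27 in the TCHX arm. ST8SIA1 has 2 sites in a 3′ UTR of 8161 bases. MITF, which fell, has none, and nor do DKK1, KIF20A and CDKN1A, which rose. Sites are also present in genes that rose with siCTU2, with 1 in HMOX1, 1 in SLITRK6 and 2 in NGFR, and CHAC1 and OSGIN1, with no call for siCTU2, have 1 each.

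Not all large falls with siCTU2 went with a 3′ UTR site. CCT3, a subunit of the chaperonin TRiC that folds actin and tubulin, fell by 3.60 on the log2 scale with siCTU2 and had -0.21 without glutamine, and its 3′ UTR has no site. Its coding sequence holds a run of 10 bases that matches the sense strand of siCTU2#2. Of the 7 tested TRiC subunits it was the only one called with siCTU2, whereas TCP1 (-0.44), CCT2 (-0.64), CCT4 (-0.29) and CCT5 (-0.28) fell without glutamine and had 0.01 to 0.04 with siCTU2. CALR, the ER chaperone calreticulin, had 242, 230 and 226 CPM with siCTU2 and 1021, 999 and 1039 CPM with siGL2. It had 737, 639 and 674 CPM without glutamine and 870, 802 and 817 CPM with it. It was thus lower in both with very unequal sizes (-2.13 and -0.22, difference -1.91, SE 0.11, edgeR adjusted p = 4e-10), and its longest match to siCTU2#2 has 9 bases, in the coding sequence. The glutamine response of CALR did not pass in the TCHX arm (-0.15, edgeR adjusted p = 0.26), but did without pQ replicate 3 (-0.25, edgeR adjusted p = 0.03). The ribosomal protein gene RPS20 fell with siCTU2 only (-1.04 and 0.10), and its 3′ UTR holds a siCTU2#1 site. It was the only 1 of 43 tested ribosomal protein genes to fall with siCTU2, while 5 rose, where 13.7% of all genes rose. Without glutamine 12 rose and 4 fell, and the medians were 0.10 and 0.08.

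Of 14 tested enzymes that modify the wobble uridine, 3 were higher and 6 lower with siCTU2, CTU2 itself being 1 of the 6, and 2 were higher and 3 lower without glutamine. Over all genes tested 28.4% and 30.3% changed, and whether the list differed between the experiments was not tested. URM1, the sulfur carrier upstream of CTU2, had 104, 107 and 103 CPM with siCTU2 against 187, 172 and 171 CPM with siGL2, and 196, 233 and 196 CPM without glutamine against 166, 178 and 145 CPM with it. It was thus lower with siCTU2 and higher without glutamine (-0.76 and 0.41), and its rise did not pass in the TCHX arm (0.23, edgeR adjusted p = 0.082). CTU1, the catalytic partner of CTU2, was higher with siCTU2 (0.58), with no called difference from the glutamine response of 0.34. TRMU, which thiolates the wobble uridine of mitochondrial tRNAs, and ELP6 were lower with siCTU2 only (-0.85 and -0.42), and ALKBH8, which acts on the same uridine, was lower with siCTU2 (-0.53). DPH3, an electron donor of Elongator, was opposite (0.66 and -0.80).

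Other lists held genes of more than 1 class, and their counts stand beside background shares of 13.7% higher and 14.7% lower with siCTU2 and of 14.6% higher and 15.7% lower without glutamine, to which many of them are close. Of 13 tested NRF2 targets, 7 were higher and 1 lower with siCTU2, and 5 were higher and 1 lower without glutamine. HMOX1, the heme oxygenase, had 144, 211 and 154 CPM with siCTU2 against 20.4, 22.7 and 18.0 CPM with siGL2, and 12.8, 25.2 and 12.4 CPM without glutamine against 11.5, 12.2 and 13.6 CPM with it, where the groups overlapped. Its responses were 3.05 and 0.51, with a difference of 2.55 (SE 0.31, edgeR adjusted p = 5.9e-06). OSGIN1, an oxidative stress gene, responded to glutamine depletion only (1.81 against 0.18), NQO1 (0.87 and 0.31) and SLC7A11 were higher in both, and the ferritin light chain FTL was opposite (-0.38 and 0.35). The rise of FTL did not pass in the TCHX arm (0.10, edgeR adjusted p = 0.61), nor without pQ replicate 3 (0.24, edgeR adjusted p = 0.064). Of 20 tested cholesterol synthesis genes, 8 fell and 1 rose without glutamine and 5 fell and 1 rose with siCTU2. HMGCS1 (-0.46 and -0.60) and IDI1 (-0.80 and -0.48) were lower in both, INSIG1, a sterol sensor, was lower without glutamine only (-1.01 against -0.30), and MVK was opposite (-0.69 and 0.59). Of 15 tested ER chaperone and ER stress genes, 7 fell and 2 rose without glutamine, and 3 fell and 1 rose with siCTU2. XBP1, a factor of the unfolded protein response, was higher in both (0.47 and 1.52), and HERPUD1 was opposite (-0.41 and 0.97).

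Of 17 tested glycolysis and hypoxia genes, 6 rose and 3 fell without glutamine (14.6% and 15.7% of all genes), and 3 rose and 6 fell with siCTU2 (13.7% and 14.7% of all genes). The glucose transporter SLC2A1 was opposite (0.63 and -0.72), SLC2A3 and ADM were higher in both, HK2 was lower in both, and GAPDH (0.47) and NDRG1 (0.59) rose without glutamine only. The fall of SLC2A1 did not pass in the TCHX arm (-0.36, edgeR adjusted p = 0.10), but did without pQ replicate 3 (-0.49, edgeR adjusted p = 0.0066). Of 12 tested interferon-stimulated genes, 3 fell with siCTU2 and 2 rose without glutamine, which is near the shares of 14.7% and 14.6% over all genes, and DDX60 did both (-0.90 and 1.35). In the TCHX arm neither response of DDX60 passed (-0.32 and 0.87, edgeR adjusted p = 0.48 and 0.059). Without pQ replicate 3 only its rise passed (1.26, edgeR adjusted p = 0.0063). A short list of epithelial and secreted genes had been picked from earlier results of these same libraries, so its siCTU2 counts are no independent evidence: 5 of 6 were higher with siCTU2. Without glutamine KLF4 was also higher and DKK1 lower, while the epithelial transcription factor EHF (4.37 and 0.26) and the mucin MUC7 (3.66 and 0.18) were higher with siCTU2 only.

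Some genes that met the naming rule were uneven between libraries or between arms. EIF3C had 132, 20.2 and 8.77 CPM without glutamine against 6.44, 8.40 and 5.03 CPM with it, and it has a near-identical copy, EIF3CL, so its value is uncertain. RPN2 had 2.15, 6.84 and 53.9 CPM in pQ libraries, and its fall without glutamine (-4.36) and those of CRTC2 (-2.60) and PPP4C (-2.51) were not found in the TCHX arm (0.18, 0.45 and -0.09, or -0.27, -0.19 and -0.62 without pQ replicate 3). The fall of FZD1, a WNT receptor, was -2.42, and -0.98 in the TCHX arm, or -1.49 without that replicate (edgeR adjusted p = 0.19 and 0.0006). MAP1A, a microtubule-associated protein, fell with siCTU2 only (-3.20 and 0.60), the transcript LOC105372157 likewise (2 counts in all siCTU2 libraries against 150 with siGL2), and DACT1, the histone gene H2BC21 and C9orf135 rose with siCTU2 only (3.56, 3.40 and 4.16). The glutamine response of C9orf135 was 0.16 in the T arm and -4.04 in the TCHX arm.

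The TCHX arm, whose libraries had not been used to form the classes, gave the same signs for most members. Both signs were the same for 293 of 327 genes higher in both (89.6%), 296 of 342 lower in both (86.5%), 271 of 309 higher with siCTU2 and lower without glutamine (87.7%) and 289 of 320 lower with siCTU2 and higher without glutamine (90.3%). Without pQ replicate 3 these shares were 97.2%, 95.9%, 95.1% and 94.4%. The full call, both tests passed in the same directions, was met again by 124 (37.9%), 77 (22.5%), 77 (24.9%) and 92 (28.7%) genes, where those classes took 1.49%, 1.13%, 1.28% and 1.1% of all 13194 genes tested in that arm. Without pQ replicate 3 the shares met again were 52.6%, 46.2%, 43.4% and 39.1%, where those classes took 2.55%, 2.58%, 1.96% and 1.5% of 13505 genes. Of the genes changed by 1 treatment only, 829 of 1485 tested (55.8%) were again called so for siCTU2, against 13.8% of all genes, and 247 of 1554 (15.9%) for glutamine depletion, against 4.2%, or 60.6% and 25.9% without that replicate. The shares over all genes without that replicate were 14.5% and 5.64%. None of the members of the 4 classes called in both was found in the class with both signs reversed. Over all genes of that arm, r was -0.012 and rho 0.026, or 0.078 and 0.085 without pQ replicate 3, and 52.4% of 659 genes called in both moved the same way.

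**Figure D5:**
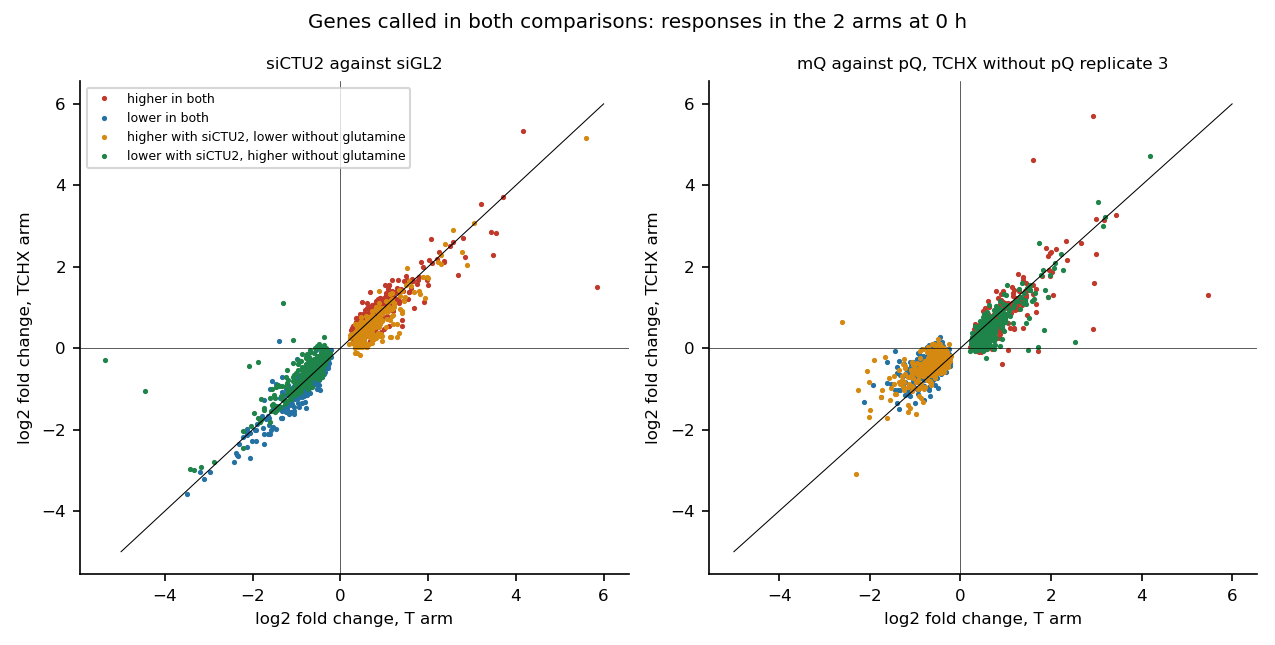
Log2 fold change in the T arm (x axis) and in the TCHX arm (y axis) of the 1298 genes called in both comparisons, for siCTU2 against siGL2 (left) and mQ against pQ (right, TCHX arm without pQ replicate 3). The line marks equal values. Most points lie near it on the left, and on the right many genes lower without glutamine lie above it, that is, closer to 0 in the TCHX arm.

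The classes also differed in composition, described here without a test. The median share of codons ending in G or C was 64.9% for genes higher in both and 64.2% for genes lower with siCTU2 and higher without glutamine, against 57.6% over 11057 genes with a coding sequence. It was 55.9% for genes lower in both, 54.4% for genes higher with siCTU2 and lower without glutamine, and 60.8% and 51.4% for genes higher and lower without glutamine only. The order thus went with the direction of the glutamine response. Genes lower with siCTU2 only and higher with siCTU2 only had 59.3% and 56.4%. For the codons read by the thiolated tRNAs, the medians over all genes tested were 2.38% for AAA, 2.88% for GAA and 1.04% for CAA. The classes lower with siCTU2 lay on either side of these values for AAA and GAA, and all below the value for CAA. Their medians were 2.29%, 2.72% and 0.985% for genes lower with siCTU2 only, 2.04%, 2.56% and 0.769% for those higher without glutamine, and 2.49%, 2.96% and 1.01% for those lower in both. In genes lower without glutamine only they were 2.76%, 3.30% and 1.11%. Coding sequences were shorter in the latter (median 357 codons against 473).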

How the data were processed

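QuantSeq libraries of cytoplasmic RNA from A375 cells were analysed. The authors deposited unnormalised gene counts, made from forward reads that had been trimmed (fastp 0.20.1), aligned to GRCh38.p13 (HISAT2 2.2.1) and assigned to exons of the NCBI annotation (HTSeq 0.13.5), with versions from the submitters' processing notes. Molecular identifiers are not mentioned, so counts may include PCR copies and counting intervals cover counting error only. Of 44659 names, 22330 had 0 counts in the 12 libraries used. Another 5088 names mark extra copies of genes, and such names were not eligible to be named. All sample columns matched a title, and 0 were left over.

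Groups and replicate numbers came from the sample titles. Counts were analysed in R 4.3.3 with the quasi-likelihood test of edgeR 4.0.16 after filterByExpr and TMM scaling, in a model of 4 group means without a replicate term, with both responses and their difference as contrasts and Benjamini-Hochberg adjustment over 12950 genes. The standard error is the log2 fold change divided by the square root of F. The TCHX arm at 0 h was fitted in the same way on its own 12 libraries. CPM are counts over the library total. Genes were named by a rule: at least 50 counts on average in the highest group, called responses of 1 sign in all 3 same-numbered pairs, then the 6 genes with the largest smaller change in each class called in both, 4 rises and 4 falls in each class called in 1, CTU2 and up to 3 genes per list, and members of list counts. The members, gene lists and tests were chosen with earlier results of these data known. The test was checked on simulated counts. Alternatives included DESeq2 1.42.0. Positions, coding sequences and 3′ UTRs are from GENCODE 44 (GRCh38) and promoters from RefSeq. The siRNA sequences are those listed in the study's supplement. Some members of the gene lists are not reported here by name.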

Additional observations from a re-analysis of the deposited data

How the results depend on the processing

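The 4 classes called in both and the 2 classes called in 1 moved by less than 1.5 times with RLE or upper-quartile factors, DESeq2, no filter on low counts and separate fits of 6 libraries, and so did the counts of siCTU2 and glutamine calls. The count of difference calls also did so, but the separate fits cannot check it. They hold no difference of their own, so the 4149 difference calls there, also used for the 2 classes called in 1, were those of the main fit. Counts are given below in the order siCTU2, glutamine, difference, higher in both, lower in both, higher with siCTU2 and lower without glutamine, lower with siCTU2 and higher without glutamine, siCTU2 only, glutamine only. Replicate numbers paired the libraries weakly at most (deviations from group means of the 18 same-numbered pairs correlated with r between -0.0571 and 0.129, 3 of them over 0.1). Those 3 were all of replicate 3: siCTU2 with siGL2 (0.129), siCTU2 with pQ (0.123) and siGL2 with pQ (0.11). Libraries of different groups and different numbers reached at most 0.0718. With a replicate block shared by all groups the counts were 3774, 3965, 4239, 338, 370, 333, 333, 1514 and 1552, and with a block within each experiment 3564, 3752, 4024, 321, 331, 299, 303, 1456 and 1492. Tested against 1.5-fold, which asks for more, they were 890, 442, 1342, 18, 10, 12, 14, 530 and 254. At an adjusted p of 0.01 the first 7 were 2419, 2326, 2575, 154, 162, 137 and 152, and the last was 894. In the TCHX arm at 0 h, glutamine calls numbered 1690, the 4 classes 196, 149, 169 and 145, and glutamine only 554. Without pQ library 3 of that arm they were 2496 glutamine calls, 203 genes lower with siCTU2 and higher without glutamine, and 762 for glutamine only, and the cause was not tested.

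Leaving out 1 library gave ranges of 2919 to 4406, 2772 to 3985, 3395 to 4478, 255 to 347, 256 to 374, 203 to 386, 220 to 347, 1217 to 1786 and 1109 to 1717. The count of 309 genes higher with siCTU2 and lower without glutamine fell to 203 without pQ replicate 2. Median responses of the gene lists and of all genes, 40 values, were taken as moved when they shifted by more than the SD between same-numbered pairs. In the TCHX arm 22 moved, and 19 without pQ library 3 of that arm. With upper-quartile factors 3 moved, with separate fits 2, and with 1 library left out 40 of 480. Of 222 called values of named genes, 222 passed in either block fit and 221 with DESeq2, while 67 lost their call against 1.5-fold, 17 at an adjusted p of 0.01, 54 in the TCHX arm and 31 in that arm without pQ library 3. A further 6 were reversed in the TCHX arm: the glutamine responses of SLITRK6 (-0.72), NPPC (0.20), RPN2 (0.18) and CRTC2 (0.45) and the differences of CRTC2 (-0.49) and PPP4C (-0.61), the last also without pQ library 3 (-0.0787). A test of T minus TCHX responses over 24 libraries, added after the data were seen, called 0 genes for siCTU2, 1 for glutamine and 0 for their difference (edgeR, 13630 genes; 580, 2183 and 2141 at an unadjusted p under 0.05).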
